A study of Homo sapiens with 18 samples.

Results

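The let-7 family is described here in small RNA-seq libraries of HEK293T cells, a human embryonic kidney line. Members were the table rows of at most 500 nt whose name list holds MIRLET7A1, MIRLET7A2, MIRLET7A3, MIRLET7B, MIRLET7C, MIRLET7D, MIRLET7E, MIRLET7G or MIRLET7I, and the rule used no measured value. It found 14 rows for these 9 genes among 175935 rows, of which 3998 are miRNA hairpin rows. Cells had been transfected for 48 h with scramble siRNA (control) or with an siRNA against SSB (siSSB), which encodes La, a chaperone of RNA polymerase III transcripts. RNA came from whole cells (total) or from nuclear (nuc) and cytoplasmic (cyto) extracts, with 3 replicates in each of 6 groups, and every library was marked as treated with PNK. HEK293T is a single transformed line and the siRNAs act transiently, so every replicate comes from 1 line. The study calls its replicates biological and handled them within the same day, and p-values measure the spread between these libraries.

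A miRNA gene is transcribed as a long primary RNA, which Drosha trims to a hairpin in the nucleus and Dicer cuts in the cytoplasm. A short arm of the hairpin is then loaded onto an Argonaute protein and pairs with target mRNAs through its seed, bases 2 to 8. The let-7 miRNAs were first known as timers of development in worms, and in mammals they repress growth genes such as HMGA2, MYC and the RAS genes. LIN28 proteins bind let-7 precursors, at a GGAG motif among other sites, and block their maturation.

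The 9 genes encode 7 different 5p miRNAs, since MIRLET7A1, MIRLET7A2 and MIRLET7A3 give the same let-7a-5p. Their sequences are shown because they decide which reads can be told apart. They are the RefSeq entries of GRCh38.p14, each 22 nt long, 5′ to 3′, with the seed in capitals.
let-7a-5p: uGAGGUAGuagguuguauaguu
let-7b-5p: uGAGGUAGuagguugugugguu
let-7c-5p: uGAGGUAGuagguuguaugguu
let-7d-5p: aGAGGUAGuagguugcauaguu
let-7e-5p: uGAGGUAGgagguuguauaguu
let-7g-5p: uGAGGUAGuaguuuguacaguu
let-7i-5p: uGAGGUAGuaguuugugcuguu

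The seed was the same in all 7 and occurred in 14 of 2545 RefSeq mature entries, the others being let-7f from 2 loci, miR-98-5p, miR-4458 and miR-4500. Positions are counted from 1 at the 5′ end, with the base of let-7a-5p given before the position. let-7c-5p differed from let-7a-5p only by A19G and let-7e-5p only by U9G. let-7b-5p carried A17G and A19G, let-7d-5p U1A and U16C, and let-7g-5p G12U and U18C. let-7i-5p stood furthest from let-7a-5p, with G12U, A17G, U18C and A19U. Among these 7, a read with 1 wrong base can thus move between let-7a and let-7c, between let-7a and let-7e, or between let-7c and let-7b. The let-7f sequence was not compared, so exchange of reads with it is not covered. How reads with several genomic positions were treated is not given in the sources used here.

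The letters GGAG, searched on the RNA strand, occurred in 7 of the 9 RefSeq hairpins and in 43.4% of all 1562 RefSeq hairpins. The hairpins of let-7a-3 and let-7b did not hold them. A match is only a description of the letters. The hairpins of let-7i, let-7g and let-7a-3 are shown because the results on arms and loops below rest on them, with the 5p and then the 3p arm in capitals.
let-7i hairpin: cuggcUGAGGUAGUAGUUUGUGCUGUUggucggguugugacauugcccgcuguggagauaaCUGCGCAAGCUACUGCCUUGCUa
let-7g hairpin: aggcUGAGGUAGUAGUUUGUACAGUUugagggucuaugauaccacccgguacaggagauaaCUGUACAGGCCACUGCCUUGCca
let-7a-3 hairpin: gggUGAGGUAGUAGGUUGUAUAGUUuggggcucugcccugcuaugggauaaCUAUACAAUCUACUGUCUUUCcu

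The let-7 genes lie on 7 chromosomes (hg38, rows with their flanks of 24 to 25 nt). The MIRLET7A1 hairpin row, chr9:94175932-94176061, and the MIRLET7D hairpin row, chr9:94178810-94178944, lie in exons of the lncRNA MIRLET7A1HG. The MIRLET7A3 row, chr22:46112775-46112845, and the MIRLET7B hairpin row, chr22:46113661-46113793, lie in exons of MIRLET7BHG. The MIRLET7A2 row, chr11:122146543-122146614, lies in an intron of MIR100HG. The MIRLET7C row, chr21:16539858-16539929, lies in an exon of MIR99AHG, beside miR-99a. The MIRLET7E hairpin row, chr19:51692762-51692888, lies in an intron of SPACA6. The MIRLET7G hairpin row, chr3:52268253-52268386, lies in an intron of WDR82. The MIRLET7I hairpin row, chr12:62603661-62603794, lies in an intron of MIRLET7IHG and an exon of ENSG00000275180. On the opposite strand, MIRLET7I lies in an exon of LINC01465, MIRLET7E in an exon of SPACA6-AS1 and MIRLET7D in an intron of LINC02603.

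A row counts every read that touches it, on either strand, so a mature read was counted in its hairpin row, in its arm row and in the host RNA row. The rule gave a hairpin row for MIRLET7A1, MIRLET7B, MIRLET7D, MIRLET7E, MIRLET7G and MIRLET7I, and arm rows for MIRLET7A2, MIRLET7A3, MIRLET7C, MIRLET7D, MIRLET7E, MIRLET7G and, on both arms, MIRLET7I. Arm rows are the mature arm with flanks of 24 or 25 nt, so each spans 71 or 72 nt. Over all 18 libraries, the 5p row held 99.9% of the hairpin count in MIRLET7G, 99.6% in MIRLET7I and 89.8% in MIRLET7D. The MIRLET7E row of the 3p arm held 99.8%, but it covers 2 bases of the 5p arm, as does the MIRLET7C row of the 3p arm. The MIRLET7A3 row of the 3p arm covers 0 bases of its 5p arm. Hairpin rows therefore do not measure precursors, and 1 row a gene, the hairpin row where there is one, is used for let-7 sums.

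The counts summed over the 9 genes were 464 to 599 a library for control total, 656 to 1206 for siSSB total, 1814 to 2438 for control cyto and 1457 to 3464 for siSSB cyto. They were only 50 to 63 for control nuc and 54 to 65 for siSSB nuc. Column sums over all rows were 21565995 to 158244813 counts per library and were highest in nuc. Of 10 nuclear markers (small nucleolar and Cajal body RNAs, MALAT1 and NEAT1), 9 were called higher in control nuc than in control cyto and 8 in siSSB, with MALAT1 at a log2 fold change of 0.19 and 0.50 not called in either. Of 12 cytoplasmic markers, 7 were called lower in control nuc and 8 in siSSB nuc, but RN7SL1, RN7SL2 and MT-TV were called higher in both. SSB mRNA has no row among these noncoding RNAs, so its depletion was not analysed here.

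**Figure D1:**
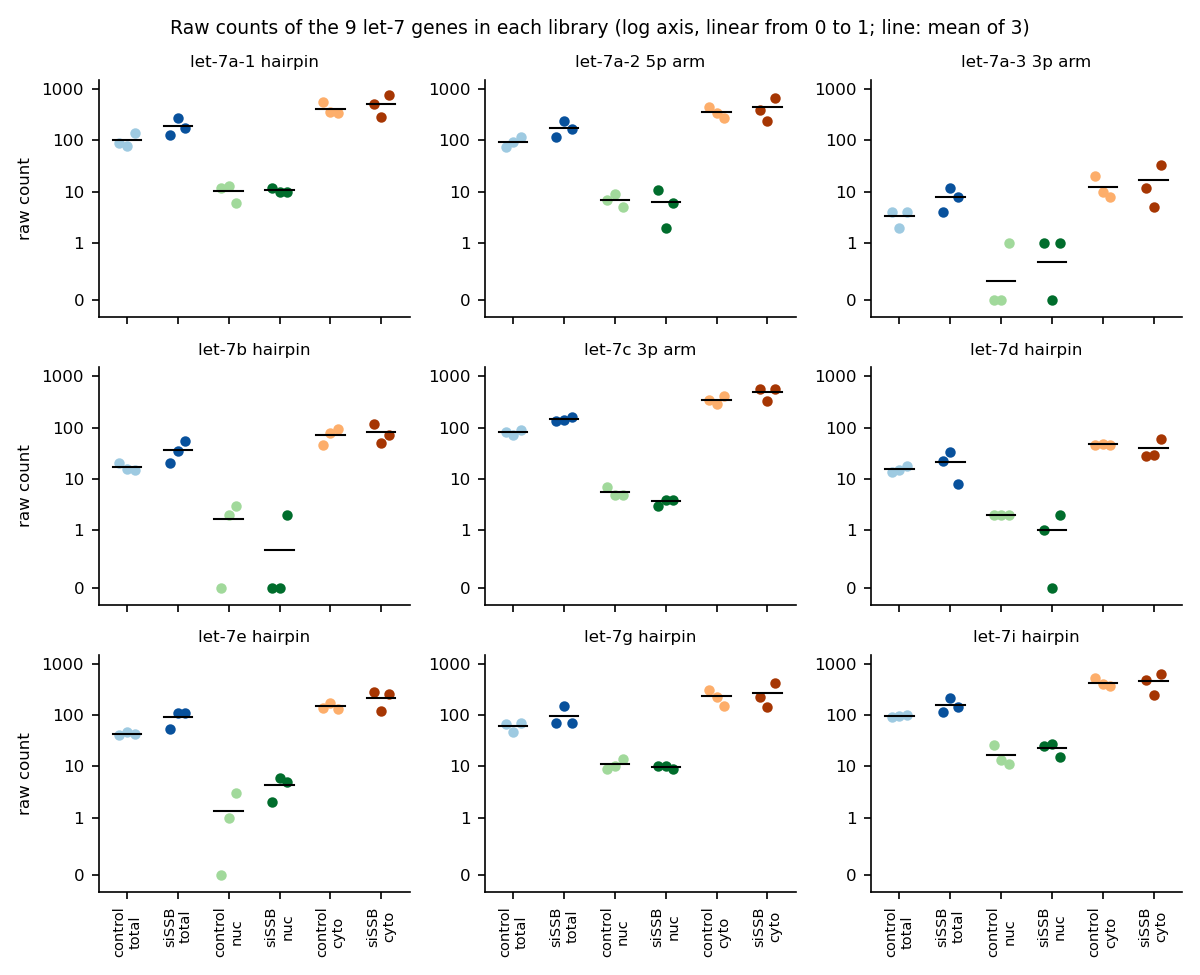
Raw read counts of the 9 let-7 genes (1 panel a gene) in each of the 18 libraries, on an axis that is linear near 0 and logarithmic above. In the nuc libraries no gene exceeded 27 counts, whereas MIRLET7A1 reached 755 in siSSB cyto.

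In total RNA, 4 genes shared the top of the family. Shares below are of the summed let-7 count of a library, mean ± SD with n = 3, and all 5p miRNAs compared have the same length. MIRLET7A1, MIRLET7A2 and MIRLET7A3 give the same let-7a-5p, so this order and those below are of loci and not of mature miRNAs. In control total the rows of these 3 loci held 306, 285 and 10 counts, beside 286 for MIRLET7I. In control total, MIRLET7A1 held 19.5% ± 3.02, MIRLET7I 18.7% ± 1.81, MIRLET7A2 18.3% ± 2.61 and MIRLET7C 16.0% ± 1.19, and neighbours in this order overlapped. MIRLET7G followed at 11.9% ± 1.77, below MIRLET7C without overlap, and overlapped MIRLET7E at 8.47% ± 1.57. MIRLET7B at 3.43% ± 0.922 and MIRLET7D at 3.05% ± 0.171 overlapped each other and lay below MIRLET7E. The MIRLET7A3 row, which leaves out the 5p arm, came last at 0.642% ± 0.200.

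The same 4 genes led the 9 in cytoplasmic RNA. MIRLET7F2, again left out, had 730, 610 and 398 counts in control cyto, beside 517, 403 and 358 for MIRLET7I. In control cyto, MIRLET7I held 20.6% ± 0.789, MIRLET7A1 19.9% ± 2.57, MIRLET7C 17.4% ± 4.65 and MIRLET7A2 17.1% ± 1.94, and the first 4 overlapped from neighbour to neighbour. In siSSB cyto, MIRLET7A1 stood at 20.4% ± 1.26, MIRLET7C at 20.3% ± 3.74, MIRLET7I at 17.7% ± 1.03 and MIRLET7A2 at 17.1% ± 2.43. MIRLET7G, MIRLET7E, MIRLET7B, MIRLET7D and MIRLET7A3 followed in this order in total and cyto RNA of both treatments.

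Nuclear RNA had another order among the 9 genes, on small counts. The relatives MIRLET7F1 and MIRLET7F2 were left out by the rule. In control nuc, MIRLET7F1 had 12, 15 and 13 counts and MIRLET7F2 16, 13 and 18, beside 9, 10 and 14 for MIRLET7G. Locus by locus, MIRLET7I was first, with 29.0% ± 10.7 of the let-7 count in control nuc and 37.3% ± 9.05 in siSSB nuc. The rows of MIRLET7A1, MIRLET7A2 and MIRLET7A3, which share let-7a-5p, held 31, 21 and 1 counts in control nuc, beside 50 for MIRLET7I. In siSSB nuc they held 32, 19 and 2, beside 67. MIRLET7G held 20.2% ± 7.07 and 16.3% ± 0.834, and MIRLET7A1 18.2% ± 5.86 and 17.98% ± 0.890. MIRLET7C held 10.1% ± 1.01 and 6.27% ± 1.47. In control nuc, MIRLET7I overlapped MIRLET7G and in siSSB nuc it lay above all other genes taken by the rule. With 50 to 65 let-7 counts a library, most nuclear neighbours could not be separated at this depth.

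The rows of the MIRLET7BHG host gave a further view of let-7a-3, whose own row misses the 5p arm. The host row held 4364 counts over all libraries, and 3603 remained after those of the MIRLET7A3 and MIRLET7B rows were taken away. This remainder was close in size to the 3734 counts of MIRLET7A1 and the 3222 of MIRLET7A2, against 125 in the MIRLET7A3 row. In control total the remainder was 93, 90 and 126 counts in replicates 1, 2 and 3, beside 90, 79 and 137 for MIRLET7A1. Its ratio to MIRLET7A1 ran from 0.400 to 1.20 over the libraries. Where in the host these reads lie was not resolved by the table.

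Other host rows were carried to different degrees by their miRNAs. The rows of MIRLET7A1, MIRLET7F1 and MIRLET7D held 97.2% of the MIRLET7A1HG count, and the MIRLET7A2 row held 82.6% of the MIR100HG count. The MIRLET7C row held 16.2% of the MIR99AHG count, and the rows of its neighbours MIR99A and MIR125B2 held 79.8%. MIR125B1 and MIR100 held a further 9.99% of the MIR100HG count. MIRLET7DHG lies on the opposite strand, and the MIRLET7D row held 79.7% of its count. No row of the table is named MIRLET7IHG.

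let-7 made up about 1% of the miRNA hairpin counts outside the nucleus. The share ran from 0.878% to 1.08% for control total, from 0.936% to 1.21% for siSSB total, from 1.18% to 1.35% for control cyto and from 1.21% to 1.29% for siSSB cyto. In nuc it was 0.0783% to 0.125% in control and 0.0947% to 0.143% in siSSB. The nuclear values lay below all others, without overlap.

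That gap depended on rows that share reads with other small RNAs. Hairpin rows that overlap a row of another small RNA class held 84.7% to 90.2% of the miRNA hairpin counts in nuc, against 9.0% to 29.8% in cyto. Without those rows, the let-7 share was 0.802% to 0.949% in control nuc and 0.827% to 1.03% in siSSB nuc. It was then 1.40% to 1.77% in control cyto and 1.33% to 1.69% in siSSB cyto. The nuclear values still lay below the cytoplasmic ones, but closer to them. This denominator was chosen after the data were seen.

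**Figure D2:**
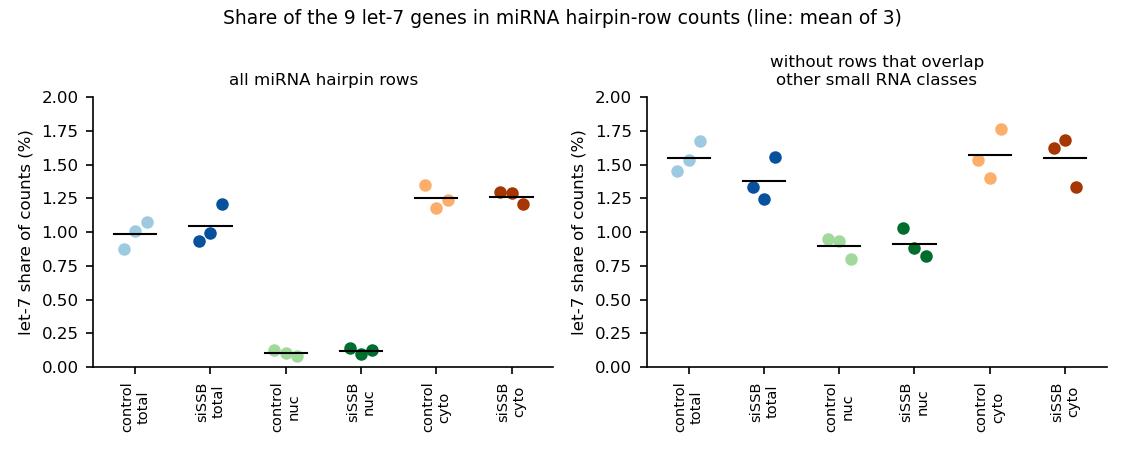
Percent of all miRNA hairpin counts that fell in let-7 rows, 1 point a library, for the 6 groups, with all hairpin rows and without rows that overlap another small RNA class. With all rows the nuc libraries lie at 0.0783% to 0.143%, and without the overlapping rows at 0.802% to 1.03%.

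Knockdown of SSB addressed whether small RNAs respond to La depletion. In total RNA, no let-7 row passed the test, and all 12 rows tested were higher in siSSB. Fold changes below are log2 values from edgeR's quasi-likelihood test, ± SE, and an adjusted p under 0.05 over all rows tested is a call. Of all 13883 rows tested, 1.34% were called in either direction and 0.367% were called higher. Of the 12 let-7 rows, 8 had an unadjusted p under 0.05, as had 16.6% of all rows, DESeq2 called 0 of them, and the MIRLET7A3 row and the MIRLET7I row of the 3p arm were too low to be tested.

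MIRLET7E, a member of the cluster with miR-99b and miR-125a, had 40, 47 and 42 counts in control total and 53, 111 and 108 in siSSB total. Scaled by TMM, this was 0.684 ± 0.0688 and 1.29 ± 0.412 CPM (counts divided by the scaled library size, mean ± SD, n = 3), and the groups did not overlap. The log2 fold change was 0.92 ± 0.28, with an adjusted p of 0.128 in edgeR's test. MIRLET7B had 21, 16 and 15 counts in control total and 21, 36 and 55 in siSSB total. Its ranges overlapped, since replicate 1 of siSSB was as low as the controls, and the log2 fold change was 0.96 ± 0.37 (adjusted p = 0.210, edgeR).

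MIRLET7A1 had 90, 79 and 137 counts in control total and 125, 268 and 171 in siSSB total, which gave 1.602 ± 0.369 and 2.64 ± 0.596 CPM and a log2 fold change of 0.72 ± 0.26. MIRLET7A2 had 74, 92 and 119 counts against 117, 235 and 167, with a log2 fold change of 0.71 ± 0.24. On the TMM scale of these 6 libraries, both were higher in siSSB in every library, without overlap, although their raw counts overlapped. Scaled over all 18 libraries, MIRLET7A1 overlapped, with a highest control total value of 2.06 CPM and a lowest siSSB total value of 1.96 CPM. The sum of the 3 let-7a rows, which does not ask from which locus a read came, gave 0.72 ± 0.24 and an adjusted p of 0.150 in edgeR's test.

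MIRLET7C had 84, 71 and 92 counts in control total and 133, 140 and 162 in siSSB total, and its log2 fold change was 0.70 ± 0.24. MIRLET7I had 90, 95 and 101 counts against 112, 218 and 144, and its log2 fold change was 0.56 ± 0.23. Neither gene's CPM ranges overlapped, and the adjusted p was 0.163 for MIRLET7C and 0.249 for MIRLET7I in edgeR's test.

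MIRLET7G and MIRLET7D moved least. MIRLET7G had 66, 47 and 71 counts in control total and 69, 152 and 71 in siSSB total, and a log2 fold change of 0.48 ± 0.28. MIRLET7D had 14, 15 and 18 counts against 22, 34 and 8, and a log2 fold change of 0.28 ± 0.39 (adjusted p = 0.789, edgeR). The CPM ranges of both genes overlapped. Over the 8 genes tested, 5 were higher in siSSB without overlap of the TMM-scaled CPM, as were 10.6% of all rows tested. The MIRLET7A3 row had 4, 2 and 4 counts in control total and 4, 12 and 8 in siSSB total.

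Other miRNAs stood at a like level. The median log2 fold change was 0.70 over the 8 let-7 genes, 0.77 over 158 other miRNA hairpin rows, with quartiles of 0.44 and 1.11, and -0.01 over all rows tested. Of those 158 rows, 15 were called higher and 0 lower. All let-7 genes but MIRLET7D lay between the miRNA quartiles.

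The size of this difference depended on the scaling, and its sign did so for some genes. The median of all rows moved from -0.01 to 0.55 with library size alone, to 0.72 when scaled to snoRNA counts, to -0.61 when scaled to other miRNA counts, and to -0.86 when scaled to miRNA rows that overlap no other small RNA. Relative to that median, let-7 was 0.69 to 0.72 higher under all of these scalings. A change of scale moves all rows almost alike, so this distance is nearly fixed and is no test of the difference. On the last scale the let-7 median itself was -0.15, and 6 of the 8 genes were lower in siSSB. Fewer counts of one RNA class and more of another cannot be told apart in such shares.

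Other quantities moved with the same groups. All 12 cytoplasmic markers were lower in siSSB total, with a median log2 fold change of -0.67, and the 3 called were the vault RNAs VTRNA1-1, VTRNA1-2 and VTRNA1-3. The 10 nuclear markers had a median of -0.04 and none was called. Hairpin rows that overlap other small RNAs held 34.0% to 39.3% of the control total miRNA hairpin counts, and 20.1% to 29.6% of those of siSSB total. Their part in the let-7 values was not tested.

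Relatives and cluster partners gave similar fold changes. MIRLET7F1, the third gene of the cluster with MIRLET7A1 and MIRLET7D, stood at 0.90 ± 0.25 on the log2 scale (adjusted p = 0.0976, edgeR). MIRLET7F2 stood at 0.69 ± 0.26 and MIR98, which has the let-7 seed and is its neighbour on the X chromosome, at 1.02, and 0 of these 3 relatives were called. Of 5 cluster partners tested, only MIR99B was called, at 1.18 ± 0.24 (adjusted p = 0.0353, edgeR). MIR99A stood at 0.91, MIR125A at 0.72, MIR125B1 at 1.41 and MIR125B2 at 0.30. The miR-17-92 cluster, which has no let-7 seed, ranged from -0.45 to 0.77 with 0 of 6 called.

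**Figure D3:**
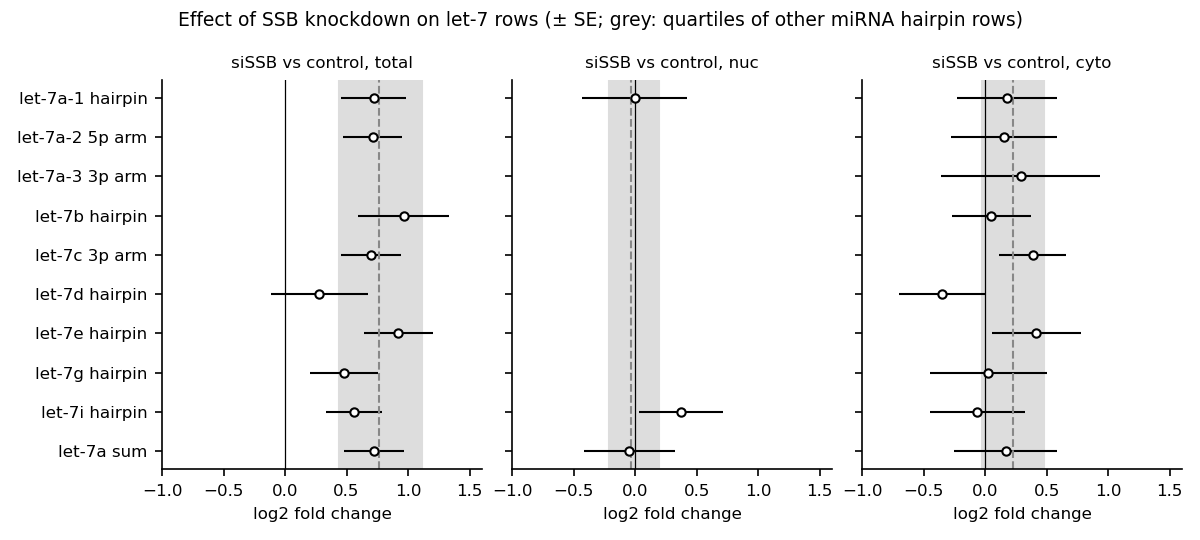
Log2 fold change of siSSB against control for each let-7 gene and the let-7a sum in total, nuc and cyto RNA, with bars of ± 1 SE. The grey band is the quartile range of the other miRNA hairpin rows, the dashed line their median, and open points are genes that were not called, which is every gene shown.

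In cytoplasmic RNA, siSSB and control were not separated for any let-7 gene. All 9 genes were tested, 0 of 13 rows were called by edgeR or DESeq2, none had an unadjusted p under 0.05, and 0.291% of all rows were called. MIRLET7E had the highest log2 fold change, 0.42 ± 0.36, from 136, 171 and 133 counts in control cyto and 280, 121 and 253 in siSSB cyto. MIRLET7C followed at 0.39 ± 0.27, from 349, 292 and 413 against 574, 336 and 557 counts.

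MIRLET7D was lowest, at -0.35 ± 0.35, with 47, 48 and 47 counts in control cyto and 28, 30 and 61 in siSSB cyto. MIRLET7I stood at -0.07 ± 0.39, with 517, 403 and 358 counts against 488, 242 and 624. MIRLET7A1 stood at 0.18 ± 0.41, with 558, 350 and 339 counts against 509, 290 and 755. Every gene's ranges overlapped, since replicate 3 of siSSB cyto was high and replicate 2 low for most genes.

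The remaining cytoplasmic members also overlapped between the treatments. MIRLET7A2 had 453, 341 and 270 counts against 391, 241 and 682, MIRLET7G 311, 227 and 152 against 221, 141 and 426, and MIRLET7B 47, 80 and 94 against 120, 51 and 73. Their log2 fold changes were 0.15 ± 0.43, 0.03 ± 0.47 and 0.05 ± 0.32. The MIRLET7A3 row had 20, 10 and 8 counts in control cyto and 12, 5 and 33 in siSSB cyto. The median of 208 other miRNA rows was 0.22. The SEs of the 9 genes were 0.27 to 0.65, so changes of that size in either direction were not detectable with this spread between replicates.

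In nuclear RNA, only MIRLET7A1 and MIRLET7I were deep enough to be tested. MIRLET7I had 26, 13 and 11 counts in control nuc and 25, 27 and 15 in siSSB nuc, with a log2 fold change of 0.37 ± 0.34. MIRLET7A1 had 12, 13 and 6 counts against 12, 10 and 10, and its log2 fold change was -0.0034 ± 0.43. Of the 3 rows tested, 0 were called by edgeR or DESeq2 and 0 had an unadjusted p under 0.05, with 0.378% of all rows called. The other 11 rows did not pass the filter on low counts, so no difference was detectable for them at this depth.

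The nuclear counts of the others were small in every library. MIRLET7A2 had 7, 9 and 5 counts in control nuc and 11, 2 and 6 in siSSB nuc, and MIRLET7G had 9, 10 and 14 against 10, 10 and 9. MIRLET7C had 7, 5 and 5 against 3, 4 and 4. MIRLET7E had 0, 1 and 3 counts against 2, 6 and 5, MIRLET7B 0, 2 and 3 against 0, 0 and 2, and MIRLET7D 2, 2 and 2 against 1, 0 and 2. The MIRLET7A3 row had 0, 0 and 1 against 1, 0 and 1. Of these genes only MIRLET7C was lower in siSSB in every library, by 1 to 4 counts.

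Nuclear and cytoplasmic RNA addressed where the miRNAs lie. All 9 let-7 genes were lower in nuc than in cyto, in control and in siSSB, and no nuclear library overlapped a cytoplasmic one for any gene. Of all rows tested, 27.5% in control and 25.9% in siSSB were lower in nuc without overlap. All 13 rows tested were called in control and all 13 in siSSB, where 14.1% and 14.5% of all rows were called lower in nuc, and 23.3% and 25.3% in either direction. Only the MIRLET7A1 row and the MIRLET7I hairpin and 5p rows pass the filter within the nuclear libraries. The other rows passed through the cytoplasmic libraries alone, so their calls are not support for the size of the family's difference.

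In control cells, MIRLET7E had the lowest nuclear level against cyto, at a log2 fold change of -4.81 ± 0.59, with 0, 1 and 3 counts in nuc beside 136, 171 and 133 in cyto. MIRLET7C stood at -3.99 ± 0.40, MIRLET7A2 at -3.77 ± 0.43, MIRLET7B at -3.45 ± 0.58 and MIRLET7A1 at -3.43 ± 0.41. MIRLET7I, at -2.80 ± 0.38, MIRLET7D, at -2.60 ± 0.53, and MIRLET7G, at -2.49 ± 0.42, differed least between the fractions. The let-7a sum gave -3.58 ± 0.39 (adjusted p = 4.45e-09, edgeR).

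In siSSB cells, MIRLET7C stood lowest, at -5.23 ± 0.45, with 3, 4 and 4 counts in nuc beside 574, 336 and 557 in cyto. MIRLET7A2 stood at -4.28 ± 0.52, MIRLET7E at -3.82 ± 0.47, MIRLET7A1 at -3.79 ± 0.43, MIRLET7D at -3.45 ± 0.72 and MIRLET7G at -2.97 ± 0.45. MIRLET7B, at -4.98 ± 0.68, rested on 0, 0 and 2 nuclear counts. MIRLET7I again differed little for the family, at -2.54 ± 0.39. The let-7a sum gave -3.96 ± 0.44 (adjusted p = 4.95e-08, edgeR).

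The lowest members rested on few nuclear counts. In control, MIRLET7E ran from -6.21 to -4.12 when each library was left out. In siSSB, MIRLET7B ran from -8.85, without siSSB_nuc replicate 3, which held both of its nuclear counts, to -4.26. The MIRLET7A3 row, at -3.13 ± 1.11 in control and -2.76 ± 0.99 in siSSB, had 1 nuclear count in control and 2 in siSSB, and its calls (adjusted p = 0.0380 and 0.0423, edgeR) were lost in DESeq2's test (0.0821 and 0.0787). Without siSSB_cyto replicate 3 its value was -1.73 (adjusted p = 0.277), and without control_nuc replicate 3 it was -6.23 (adjusted p = 0.0562). Its cytoplasmic level was 9.65-fold the nuclear one in control (95% exact interval for counting error only, 1.63 to 391) and 7.17-fold in siSSB (1.88 to 60.9). For MIRLET7B and MIRLET7D in siSSB, with 2 and 3 nuclear counts, the ratios were 35.0 (9.59 to 291) and 11.4 (3.80 to 56.0).

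Other miRNAs were also lower in nuc. The median over other miRNA hairpin rows was -3.15 in control, with quartiles of -3.90 and -2.10, and 169 of 231 were called lower and 10 higher. In siSSB it was -3.52, with 183 of 228 called lower and 8 higher. The let-7 median was -3.43 in control and -3.79 in siSSB, and the median of all rows -0.27 and -0.19. The 3 relatives were all called lower, as were the 6 cluster partners, with medians of -3.02 and -4.34 in control. Only 2 of these relatives, 2 of these partners and 60 other miRNA hairpin rows pass the filter within the nuclear libraries. The calls and medians of these lists thus share the limit given above for the let-7 rows. The miR-17-92 cluster was split, with MIR18A at 2.17 and MIR20A at 1.02 called higher in control nuc, MIR19A at -2.60 and MIR92A1 at -3.70 called lower, and 2 not called.

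The scale of this comparison was far from settled. Library size alone put the all-row median at -4.33 in control and snoRNA scaling at -6.11, whereas scaling to miRNA rows that overlap no other small RNA put it at 2.05. Relative to the all-row median, let-7 stood between -2.97 and -3.19 under these scalings and TMM in control, and between -3.40 and -3.70 in siSSB. This distance, too, is nearly fixed whatever the scale and tests nothing. On the last scale 3 rows were called in each treatment, those of MIRLET7C and MIRLET7E in control and of MIRLET7A2, MIRLET7B and MIRLET7C in siSSB. MIRLET7G in control and the MIRLET7A3 row and MIRLET7I in siSSB were then above 0, uncalled. Relative to the median of the other miRNA rows, the let-7 median stood at -0.28 in both treatments under TMM.

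**Figure D4:**
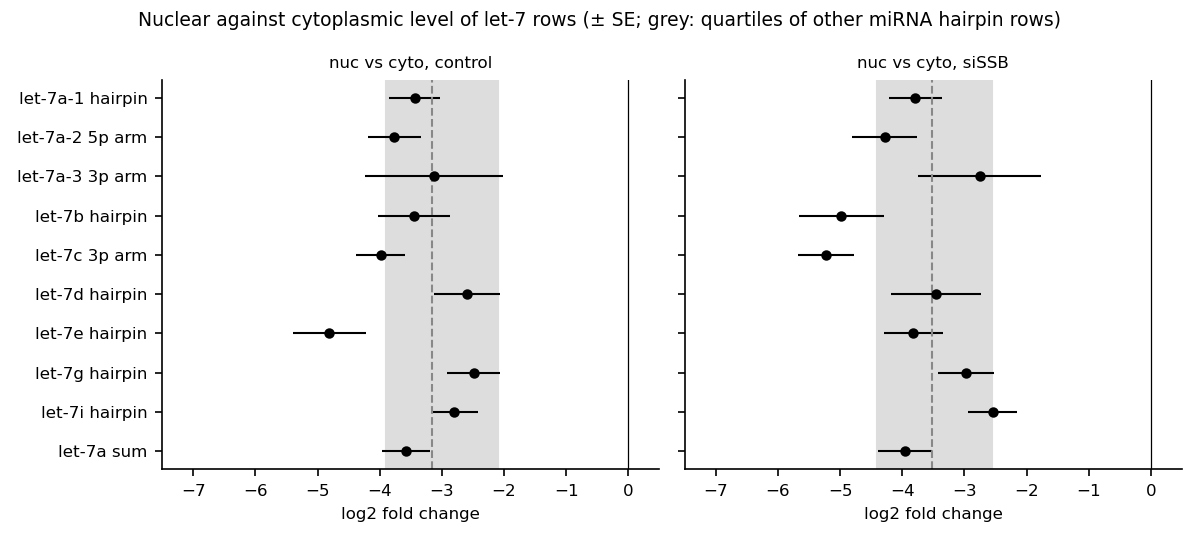
Log2 fold change of nuc against cyto for each let-7 gene and the let-7a sum in control and siSSB cells, with bars of ± 1 SE. The grey band and dashed line are the quartiles and the median of the other miRNA hairpin rows, -3.15 in control and -3.52 in siSSB, and filled points are called genes.

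The nuclear and cytoplasmic knockdown effects were compared in 1 fit of 12 libraries. Of 13 let-7 rows tested, 0 were called by edgeR or DESeq2 and none had an unadjusted p under 0.05, and 0.0133% of 37493 rows were called. MIRLET7C came nearest, with a difference of effects of -1.22 ± 0.64 on the log2 scale (adjusted p = 0.959, edgeR), siSSB being lower than control in nuc and higher in cyto. MIRLET7E stood at the other end, at 1.00 ± 0.89, and MIRLET7B at -1.50 ± 1.21. When each library was left out, MIRLET7E ran from 0.34 to 2.41, its highest value being without control_nuc replicate 3, and MIRLET7B from -5.20, without siSSB_nuc replicate 3, to -0.73. MIRLET7I stood at 0.26 ± 0.55 and the let-7a sum at -0.38 ± 0.58. With SEs of 0.55 to 1.82, a difference of 1 log2 unit lay within 2 SEs of 0 for every row.

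The 3p arm of let-7i is the passenger arm and was seldom counted. Its row, chr12:62603722-62603793, held 49 counts beside 3509 in the hairpin row. In total RNA it had 0, 3 and 2 counts in control and 3, 1 and 0 in siSSB. In cyto it had 6, 3 and 5 counts in control and 3, 4 and 3 in siSSB, and in nuc 5, 0 and 1 in control and 4, 6 and 0 in siSSB. It never passed the filter, and its counts in nuc and cyto were of the same size although the hairpin row held 117 and 2632 counts in them.

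As a share of the hairpin count, the 3p row was higher in nuclear RNA. It was 16 of 117 counts in nuc, or 13.7% (95% Wilson interval 8.60 to 21.1), and 24 of 2632 in cyto, or 0.912% (0.614 to 1.35). In total RNA it was 9 of 760, or 1.18% (0.624 to 2.24). The nuclear share was 12% in control and 14.9% in siSSB, and 4 of the 6 nuclear libraries held any such count. These intervals pool libraries and cover counting error only, since reads without molecular identifiers are not independent molecules.

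let-7g had a like pattern in its row of the 3p arm, chr3:52268255-52268325, which the membership rule does not take in and which was looked up after the let-7i values were seen. It held 11 counts in nuc beside 62 in the hairpin row, or 17.7% (10.2 to 29.0). In cyto it held 1 of 1478, or 0.0677% (0.0119 to 0.382), and in total RNA 1 of 476. By library, nuc had 0, 1 and 4 counts in control and 1, 3 and 2 in siSSB.

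**Figure D5:**
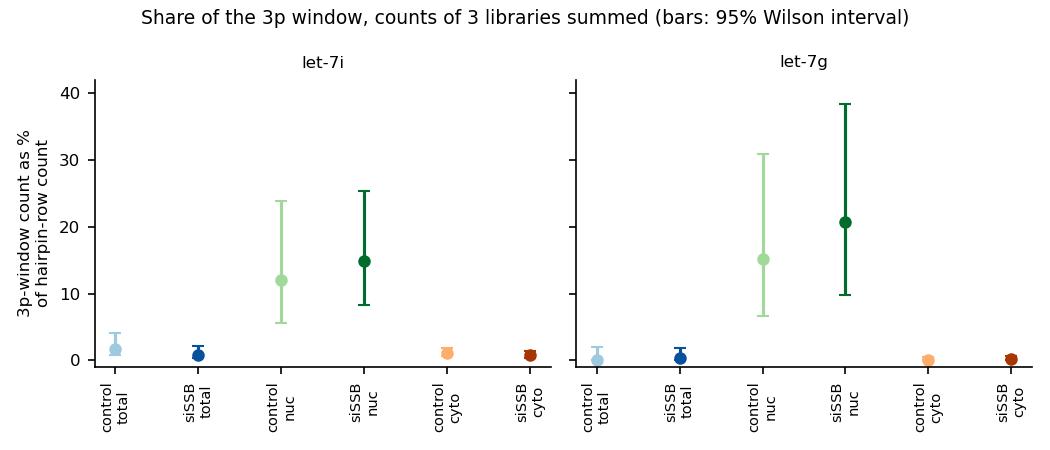
Percent of the hairpin count found in the row of the 3p arm for let-7i and let-7g in the 6 groups, with the counts of 3 libraries summed and 95% Wilson intervals. The nuc groups stand highest, at 12% in control and 14.9% in siSSB for let-7i and at 15.2% and 20.7% for let-7g, and no other group exceeds 1.75%.

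Part of these nuclear counts came from reads that touch the rows of both arms. The 2 rows of let-7i overlap by 16 nt in the loop, between the arms shown in capitals above. The count of the 5p row plus that of the 3p row exceeds the hairpin count by the number of reads counted in both, or by less. In nuc at least 13 of 117 let-7i reads, or 11.1% (95% Wilson interval 6.61 to 18.1), were in both rows, against at least 16 of 2632, or 0.608% (0.374 to 0.985), in cyto. In total RNA it was at least 5 of 760, or 0.658% (0.281 to 1.53). The nuclear libraries gave 4, 0 and 1 such reads in control and 3, 5 and 0 in siSSB.

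A mature read of either arm touches only the row of its own arm, so a read in both rows lies in the loop or reaches into it. For let-7g, whose rows overlap by 15 nt, at least 9 of 62 nuclear reads, or 14.5% (7.83 to 25.3), were in both rows, and 1 of 476 in total RNA. In cyto the excess was 0 of 1478. The nuclear let-7g libraries gave 0, 1 and 4 such reads in control and 0, 2 and 2 in siSSB. The same direction held in control and siSSB for both genes, at 10.0% and 11.9% of nuclear let-7i reads and 15.2% and 13.8% of nuclear let-7g reads. The table does not give read lengths, so whether these reads are hairpin precursors, and on which strand they lie, was not tested.

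The miRNAs whose levels followed let-7 most closely were named by a rule, as the 5 highest Pearson correlations of log2 CPM with the let-7 sum. Over 121 hairpin rows with a mean of at least 50 counts, they were MIR378A (r = 0.994), MIR25 (0.993), MIR10A (0.991), MIR128-1 (0.990) and MIR128-2 (0.990), across 18 libraries. The median over the 121 rows was 0.945, with quartiles of 0.551 and 0.976, so high values were common. The libraries share their depth and the difference between fractions, and r is given as a description. Within the 6 nuclear libraries, r was 0.860 for MIR378A, 0.761 for MIR25, 0.890 for MIR10A, 0.628 for MIR128-1 and 0.841 for MIR128-2.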

How the data were processed

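Small RNA-seq libraries (18, in 6 groups of 3) were made from total, nuc and cyto RNA with a small RNA library kit. A table of raw counts was deposited, with a whole number of reads for each noncoding RNA row and no normalization by the authors. The submitters' processing notes name hg38, Bowtie2 and bedtools, with versions, multi-mapping and strand settings for these small RNA libraries not given in the sources used here. Reads that touch overlapping rows were counted in each, on either strand, and 57876 rows repeat the counts of an earlier row, so column sums (21565995 to 158244813) exceed the number of reads. No column of the table was left unused (0).

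The sample titles gave the groups and the replicate numbers. Counts were tested with edgeR 4.0.16 (limma 3.58.1, R 4.3.3) by the quasi-likelihood F-test with TMM factors and filterByExpr, on the 6 libraries compared or, for the difference of knockdown effects, on 12. Benjamini-Hochberg adjustment ran over all rows tested in a comparison. SEs follow from the F statistic. The test was checked on simulated counts. With 3 libraries against 3, an exact permutation test cannot go below 0.1 and was not used.

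All 9 let-7 genes were named, with counts in every library for rows with a mean of at least 10 counts. The relatives MIRLET7F1, MIRLET7F2, MIR98 and MIR202 (0 counts in all libraries), the cluster partners, including MIR4763 (at most 2 counts) and MIR100 (0 counts in all nuclear libraries), the host rows and the 5 most alike miRNAs were named by list or rule. The members and lists were chosen with earlier results of these data known. Wilson intervals are at 95%. Alternatives were library size alone, DESeq2 1.42.0 size factors and test, scaling to miRNA or snoRNA counts, no filter, rows of at most 500 nt, identical rows once, all 18 libraries in 1 fit, a replicate block, a threshold of 0.01 and leaving out each library. Scaling to miRNA rows without overlap was chosen after seeing the data.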

Additional observations from a re-analysis of the deposited data

How the results depend on the processing

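Depth limits the nuclear values, with 50 to 65 let-7 counts a library. Read sharing of let-7a with let-7c and let-7e, of let-7c with let-7b and between overlapping rows limits all values. Sharing of reads with let-7f was not examined. Where a value changed below, the cause was not tested. The labels do not say whether libraries of the same number are pairs, and with 3 a group the counts could not settle it. Correlations of same-numbered libraries were -0.28 to 0.11 in total, -0.09 to 0.13 in nuc, -0.42 to -0.24 in cyto and -0.04 to 0.08 between fractions. A library correlated best with its own number in 0 of 3 pairs within each fraction and in 2 of 3 between fractions. A replicate block changed no let-7 call, with 0, 0, 0, 13, 13 and 0 rows called in the 6 comparisons. It moved all calls to 199, 40, 4, 5939, 6420 and 4.

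With siSSB against control in total RNA, 2 rows were called with library size alone (MIRLET7E at 1.48, adjusted p = 0.0471) and 3 with rows of at most 500 nt (MIRLET7C at 1.03 and both MIRLET7E rows, the hairpin row at 1.25, with adjusted p = 0.0303 and 0.0365), where the let-7a sum was 1.07 (adjusted p = 0.0469). Scaled to miRNA counts, MIRLET7D was -0.34, MIRLET7G -0.12 and MIRLET7I -0.042. Scaled to miRNA rows without overlap, the let-7a sum was -0.14, MIRLET7A1 -0.14, MIRLET7A2 -0.16, MIRLET7C -0.10, MIRLET7D -0.60, MIRLET7G -0.39 and MIRLET7I -0.30. In nuc, the let-7a sum was 0.27 with library size alone, 0.16 scaled to miRNA, 0.21 scaled to snoRNA and 0.18 with rows of at most 500 nt, and MIRLET7A1 was 0.34, 0.18, 0.28 and 0.22, and 0.0045 with identical rows once and 0.013 with the replicate block. In cyto, scaled to miRNA, MIRLET7A2 was -0.0022, the MIRLET7A3 row -0.012, MIRLET7B -0.10 and MIRLET7G -0.12, and without overlap the sum was -0.011 and these were -0.027, -0.065, -0.16 and -0.14. MIRLET7G was -0.039 with the replicate block, and MIRLET7I 0.12, 0.29 and 0.11 with library size alone, snoRNA scaling and rows of at most 500 nt.

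For nuc against cyto, scaling to miRNA rows without overlap left 3 rows called in control and 3 in siSSB, with the let-7a sum at -1.06 and -1.10 (adjusted p = 0.0683 and 0.0634), MIRLET7G in control at 0.045, and the MIRLET7A3 row and MIRLET7I in siSSB at 0.20 and 0.32. For the difference of knockdown effects, miRNA scaling gave 0.15 for the sum, 0.15 for MIRLET7A1, 0.043 for MIRLET7A2 and 0.10 for MIRLET7G.

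Leaving out each library, let-7 calls numbered 0 in the knockdown comparisons and 12 to 13 between fractions. In nuc the let-7a sum ran from -0.34 to 0.24 and MIRLET7A1 from -0.26 to 0.21. In cyto the sum ran from -0.31 to 0.53, MIRLET7A1 from -0.25 to 0.57, MIRLET7A2 from -0.37 to 0.48, MIRLET7A3 from -0.72 to 0.89, MIRLET7B from -0.26 to 0.28, MIRLET7G from -0.56 to 0.42 and MIRLET7I from -0.42 to 0.20. For the difference of effects, the sum ran from -0.73 to 0.18, MIRLET7A1 from -0.73 to 0.16, MIRLET7A2 from -1.17 to 0.087, MIRLET7A3 from -0.22 to 3.40, MIRLET7D from -1.87 to -0.17, MIRLET7G from -0.84 to 0.21 and MIRLET7I from -0.0067 to 0.71.

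Over the alternatives other than the threshold of 0.01, rows called in the whole table ran from 69 to 5935 in total (186 as reported, of which 51 were higher, against 628 of 716 with library size alone, 646 of 695 with snoRNA scaling and 34 of 2931 with miRNA scaling), from 0 to 67 in nuc (26), from 2 to 248 in cyto (55), from 1574 to 26435 between fractions in control (6242), from 1519 to 25875 in siSSB (6658) and from 1 to 24 for the difference of effects (5). At the threshold of 0.01, the reported fits called 4 rows in total, 17 in nuc, 7 in cyto and 3 for the difference of effects. Between fractions they called 4588 in control and 4717 in siSSB.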
